A study of Mus musculus with 6 samples.

Results

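The neutrophil granule genes described here were Elane, Prtn3, Mpo, Ctsg, Camp, Ltf, Ngp, Lcn2, S100a8 and S100a9, a fixed list of 10 genes of 18063 autosomal protein-coding genes whose replication timing could be read. All 10 were found in the RefSeq annotation of mm10, and they were listed by name for their place in neutrophil granules and cytosol, with earlier results of these data known. Each gene took the timing score of the deposited window nearest its midpoint, and the windows within 500 kb on each side were read as its surroundings. The samples were mouse myeloid lines, HoxB8-immortalised and kept after selection in GM-CSF, 3 of them Recql4 -/- Klhdc3 -/- and 3 WT. Per the labels the cultures divided every 15 to 18 hours with over 25% of cells in S phase, and proliferating, unsorted cultures gave the DNA. Recql4 encodes a helicase that acts when replication starts, and Klhdc3 a substrate receptor of a ubiquitin ligase. The sources used here did not say if the samples of a genotype were separate clones or cultures. Only DNA was measured, so whether the genes were transcribed, or how far the lines resembled neutrophil precursors, was not tested.

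The 6 columns of values carried no sample names, and they are called profiles A to F here, as they stand from left to right. No profile has a known genotype, so the 2 genotypes were not compared, and no statement below is about the double knockout or WT as such. The libraries aimed at 30-fold coverage with reads of 150 bp, and the sources used here gave no depth for any library, so counting error could not be stated. The deposited timing score is a smoothed profile centred on 0 and scaled so that the autosomal windows of each profile have an SD of 1, and a higher score stands for earlier replication. The deposited raw level is a normalised copy number per window, with autosomal medians of 1.96 to 1.98. Chromosome 19 had no value in any profile and chromosome 12 none in 2 of them. No granule gene lies on either.

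Neutrophils store their weapons in granules that form in sequence while the cell matures. Azurophil granules are made first, at the promyelocyte stage, and hold serine proteases and myeloperoxidase. Specific granules are made later and hold lactoferrin, cathelicidin and lipocalin, while the calprotectin subunits S100A8 and S100A9 fill the cytosol of mature cells. In growing cells, DNA that replicates early in S phase is present in more copies than DNA that replicates late, which is what sequencing depth records. Early replication is in general more common in gene-rich DNA, and many genes of a cell's own lineage lie in early DNA.

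All 10 granule genes replicated earlier than the autosomal mean in each of the 6 profiles, against 76.4% of all scored genes. Their median score was 1.10, against 0.82 for all genes, and 8 of the 10 lay above that median. Between profiles the median of the 10 genes lay 0.26 to 0.30 units above the median gene of the same profile. Lcn2, Elane and Prtn3 formed the earliest group, with medians of 1.65, 1.63 and 1.63. By smoothed score, S100a8 and S100a9 were the latest, with medians of 0.75 and 0.68. A score of at least 1 in each profile was reached by 5 genes, Lcn2, Elane, Prtn3, Ngp and Camp, while 27.7% of all scored genes reached it. On the unsmoothed raw levels, averaged over 50 kb and rescaled in the way of the score, the count was 3, against 25.3% of all genes, and all 10 stayed above 0, against 73.3% of all genes. A lower score limit of 0.5 was reached by all 10 genes and by 58.1% of all genes, and a higher one of 1.5 by 0 of the 10 and by 2.78% of all genes. The 10 genes occupy only 6 loci when genes within 1 Mb are joined, so neighbours in a smoothed profile are not separate observations.

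**Figure D1:**
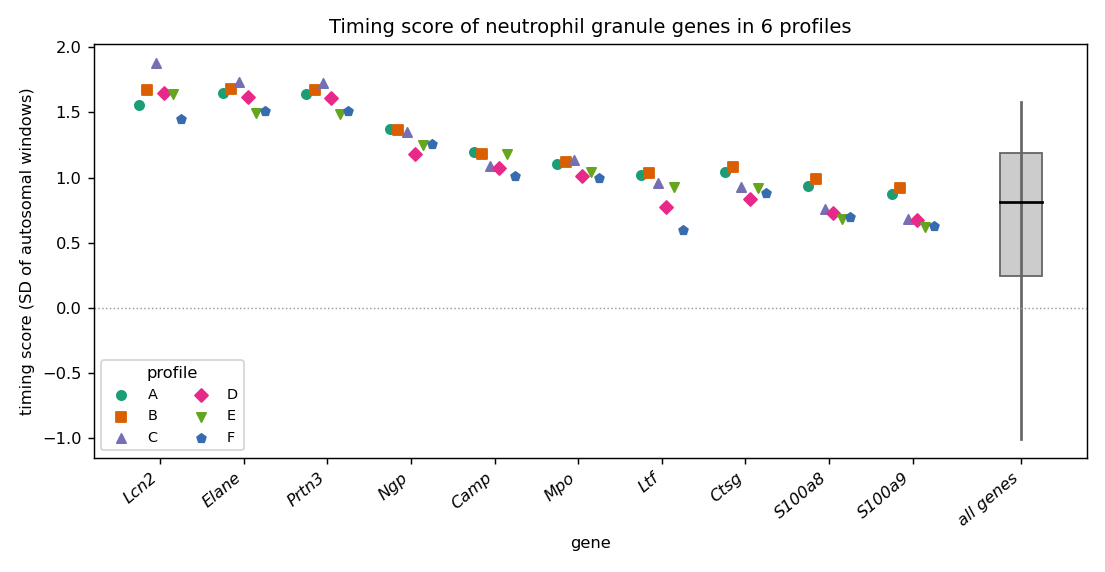
Timing score (vertical axis, in SD of autosomal windows) of the 10 granule genes in order of their median, with 1 point per profile A to F; the box at the right gives the quartiles, median and 5th to 95th percentile of the median scores of all 18063 genes. All points lie above 0, and the medians run from 1.65 at Lcn2 to 0.68 at S100a9.

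The DNA just upstream of the earliest and the latest of these genes by smoothed score is shown because their scores differed most. On rescaled raw levels S100a8 was not among the latest. It ranked 5 of the 10, at a median of 1.07, and Ltf was the lowest, at 0.66. These are the 250 bases before the gene start of the 3 earliest genes and of both calprotectin genes, from RefSeq (GRCm38.p6, the build called mm10), read 5′ to 3′ on the gene's own strand. Capitals mark matches to AGGAAG, a core bound by the myeloid factor PU.1, or to TTNNGNAA, a pattern bound by C/EBP factors, on either strand.
Lcn2 (chr2:32387740-32387989, minus strand): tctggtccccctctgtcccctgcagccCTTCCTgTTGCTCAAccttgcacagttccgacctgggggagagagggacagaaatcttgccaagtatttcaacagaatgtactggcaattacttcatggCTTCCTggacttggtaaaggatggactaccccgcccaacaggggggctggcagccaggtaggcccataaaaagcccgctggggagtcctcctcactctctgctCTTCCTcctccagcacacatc
Elane (chr10:79886062-79886311, plus strand): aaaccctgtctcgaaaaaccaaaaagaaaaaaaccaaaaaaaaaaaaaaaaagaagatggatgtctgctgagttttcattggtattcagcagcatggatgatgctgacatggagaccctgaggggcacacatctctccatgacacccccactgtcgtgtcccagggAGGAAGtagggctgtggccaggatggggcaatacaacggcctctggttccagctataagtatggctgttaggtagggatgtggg
Prtn3 (chr10:79879417-79879666, plus strand): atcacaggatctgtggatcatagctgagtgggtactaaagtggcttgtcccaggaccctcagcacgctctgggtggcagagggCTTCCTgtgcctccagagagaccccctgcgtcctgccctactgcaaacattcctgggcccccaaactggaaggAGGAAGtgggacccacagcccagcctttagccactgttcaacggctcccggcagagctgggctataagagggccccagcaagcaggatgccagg
S100a8 (chr3:90668821-90669070, plus strand): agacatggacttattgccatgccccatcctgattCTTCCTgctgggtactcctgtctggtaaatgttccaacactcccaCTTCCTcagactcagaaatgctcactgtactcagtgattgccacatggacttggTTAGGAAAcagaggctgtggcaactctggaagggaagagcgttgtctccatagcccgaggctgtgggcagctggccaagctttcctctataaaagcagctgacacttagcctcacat
S100a9 (chr3:90695722-90695971, minus strand): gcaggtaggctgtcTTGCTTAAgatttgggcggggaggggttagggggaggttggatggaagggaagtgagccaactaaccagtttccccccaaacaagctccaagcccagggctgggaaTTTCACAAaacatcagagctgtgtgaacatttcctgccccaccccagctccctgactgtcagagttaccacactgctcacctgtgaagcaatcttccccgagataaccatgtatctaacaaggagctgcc
The upstream sequences of the 10 genes were poor in CpG dinucleotides, with 2 to 7 each and a median of 3, against a median of 10 over 21045 upstream sequences of protein-coding genes. Their GC content, at a median of 54.4% (range 47.6% to 60.4%), lay close to the 55.6% of all genes. Of the 3 earliest genes, Lcn2 and Elane had 3 CpG each at 56.4% and 47.6% GC, and Prtn3 had 4 at 60.4% GC. S100a8 and S100a9, the latest by smoothed score, had 2 CpG each at 50.8% and 53.6% GC. The CpG counts of these 5 genes thus differed by 1 or 2 dinucleotides, and their GC contents overlapped. AGGAAG occurred upstream of 8 of the 10 genes and of 28.7% of all genes. It was missing upstream of Ngp and S100a9. TTNNGNAA occurred upstream of 5 of the 10 and of 34.1% of all genes, and the 5 were Ltf, Ngp, Lcn2, S100a8 and S100a9. None of the 4 azurophil genes held it, but 4 genes are few and a difference between classes was not tested. Matches of the 2 patterns overlapped in 0 of the 10 sequences. The patterns were picked for this description, and a match shows letters, not binding. A missing match likewise does not show that a factor cannot bind.

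The 4 azurophil genes had a median score of 1.35. Elane, which encodes neutrophil elastase (chromosome 10, 79886312 to 79888216), scored 1.65, 1.68, 1.73, 1.62, 1.49 and 1.51 in profiles A to F. The highest value was in C and the lowest in E, and 96.8% of all genes were later by median. Prtn3, which encodes proteinase 3, the antigen of many anti-neutrophil autoantibodies in humans (79879667 to 79883174), lies 3137 bp before Elane. It scored 1.64, 1.67, 1.72, 1.61, 1.49 and 1.51. The pair was nearest to adjacent windows, and their scores differed by at most 0.0092 in any profile, so the order between them carries no information beyond the slope of the smoothed profile.

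Mpo, which encodes myeloperoxidase, the enzyme that makes hypochlorous acid (chromosome 11, 87793784 to 87804412), scored 1.10, 1.12, 1.14, 1.02, 1.04 and 0.999. It was above 1 in each profile but F, where it fell short by a margin far below the range over profiles of 0.14, the narrowest of the 10 genes. Ctsg, which encodes cathepsin G, a protease related to elastase (chromosome 14, 56099885 to 56102574), scored 1.04, 1.08, 0.93, 0.84, 0.92 and 0.89. It reached 1 only in A and B. By smoothed score, Elane and Prtn3 were earlier than Ctsg in each profile. On rescaled raw levels Ctsg was below both in C to F but above both in A and B. In A and B it stood at 1.38 and 1.40, against 1.07 and 1.20 at Elane and 1.16 and 1.27 at Prtn3.

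The 4 specific granule genes had a median of 1.22. Lcn2, which encodes lipocalin 2, a protein that withholds iron from bacteria by binding their siderophores (chromosome 2, 32384637 to 32387739), scored 1.56, 1.67, 1.88, 1.65, 1.64 and 1.45. Profile C was high and F low, and the range of 0.43 was among the widest of the list. Lcn2 was higher than Elane in only 3 of the 6 profiles, so the 2 genes cannot be ordered.

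The other 3 specific granule genes lie on chromosome 9, the outer pair 1183 kb apart, and were not alike. Camp, the gene of cathelicidin, an antimicrobial peptide precursor (109847377 to 109849456), scored 1.20, 1.18, 1.09, 1.07, 1.18 and 1.01. Ngp, the gene of neutrophilic granule protein, a relative of the cathelicidins (110419808 to 110423012), scored 1.37, 1.37, 1.35, 1.18, 1.25 and 1.26. Ltf, the gene of lactoferrin, an iron-binding protein (111019292 to 111042766), scored 1.02, 1.04, 0.96, 0.77, 0.93 and 0.60. By smoothed score, Ngp was the earliest of the 3 in each profile, and Ltf the latest, at 0.07 to 0.26 units above and 0.13 to 0.41 units below Camp. On rescaled raw levels Camp stood above Ngp in A and E and below it in the other profiles. Ltf was the lowest of the 3 in each profile there too. Profile F stood lowest at Ltf, where the range over profiles was 0.44, the widest of the list.

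S100a8 and S100a9 encode the subunits of calprotectin, which binds zinc, manganese and calcium. S100a8 (chromosome 3, 90669071 to 90670034) scored 0.94, 0.99, 0.76, 0.73, 0.68 and 0.70 in profiles A to F. S100a9 (90692630 to 90695721) scored 0.88, 0.92, 0.69, 0.67, 0.62 and 0.63. Profiles A and B were higher than the other 4 at both genes. By smoothed score, these 2 genes were above the median gene of their own profile in 2 of 6 profiles, A and B. In F the difference at S100a8 was only -0.002. Of the 8 granule proteins proper, 7 were above that median in all 6, and Ltf in 4. The share of all genes above it in all 6 was not computed. On rescaled raw levels S100a8 ranked 5 of the 10 genes, at a median of 1.07, and S100a9 ranked 9, at 0.72. The median raw level of all of chromosome 3 was 1.93, 1.93, 1.94, 1.89, 1.86 and 1.92 in A to F, lowest in E and D. The part of that level in the scores of the 2 genes was not tested.

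The order of the genes by smoothed score was compared between profiles. Of the 45 pairs of genes, 39 stood in the same order in all 6 profiles and 6 did not. The share among pairs of all genes was not computed, and pairs that share loci are not separate observations. On rescaled raw levels only Lcn2 and Ngp kept their rank by median. S100a8 moved from rank 9 to 5 and Ltf from 7 to 10. S100a8 stood above Elane there in A (1.12 against 1.07) and B (1.23 against 1.20), and below it in C to F. Neighbours in the order by smoothed score that could not be separated were Lcn2 and Elane (higher in 3 of 6), Camp and Mpo (5 of 6), and Ltf and Ctsg (Ltf higher in 2 of 6, although its median is higher by 0.02). The range over the profiles was under 0.5 for all 10 genes, as for 91.8% of all genes, and under 0.25 for 6 of the 10 and 41.3% of all genes. Its median was 0.24 for the 10 genes, against 0.27 for all genes.

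The genes sat at different places in their local timing landscape. A timing peak was a local maximum, with a prominence of at least 0.25, of the mean score of the 6 profiles, and 804 were found on the autosomes. Only Elane, at 94.5 kb, and Lcn2, at 97.2 kb, lay within 100 kb of a peak, which is 2 of 10 genes against 12.5% of all genes. Prtn3 missed this limit at 100.4 kb, and without profile C the count was 1. Within 200 kb there were 3 of the 10 and 23.9% of all genes, and within 50 kb 0 of the 10 and 6.06% of all genes. Ngp lay 202.7 kb from a peak of height 1.40, and Camp lay 370.3 kb from the same peak on its other side. The median distance to a peak was 392.9 kb for the 10 genes and 503.7 kb for all genes.

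**Figure D2:**
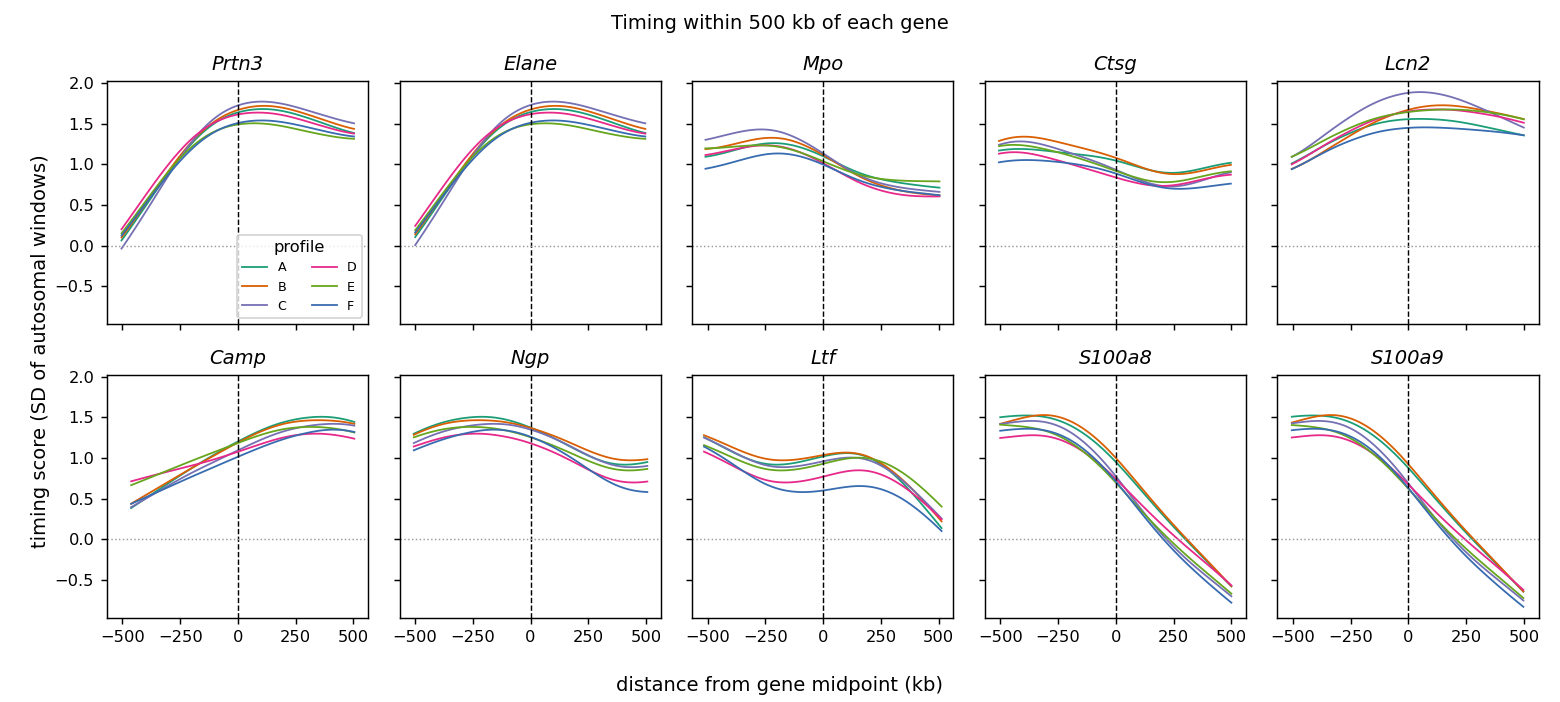
Timing score (vertical axis, in SD of autosomal windows) against distance from the midpoint of each gene (kb), with 1 line per profile and the gene at the dashed line. The mean score at Lcn2 stays above 1 from edge to edge, whereas at S100a9 it runs from 1.39 on the left edge to -0.70 on the right edge.

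Elane and Prtn3 lay on the shoulder of a steep rise. Within 500 kb the mean score over the profiles went up from 0.14 on the left, where the vomeronasal receptor gene Vmn2r82 was the latest neighbour at a median of 0.11, to 1.61 at Elane, and it was still 1.39 at 500 kb to the right. Of the 56 other scored genes of this locus, 55 were above 0 in each profile, against 76.4% of all genes. The median of these neighbours was 1.49, and the earliest of them was Tmem259, at 1.66. The complement factor D gene Cfd, the nearest gene to the right, took the same window as Elane.

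Lcn2 lay near a timing peak in a broad early region. The mean score there was 1.03 at 500 kb to the left, 1.64 at the gene and 1.46 at 500 kb to the right. All 33 other scored genes in the region, with a median of 1.62, were above 0 in each profile, against 76.4% of all genes. They ran from the laminin gene Lamc3 at 1.07 to Fam102a at 1.67. The prostaglandin synthase gene Ptges2, next to Lcn2 on the right, had a median of 1.65.

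On chromosome 9, the peak between Camp and Ngp lay at 110218710, inside Smarcc1 (110132024 to 110240178), which encodes a subunit of SWI/SNF chromatin remodellers and was the earliest of the 47 other scored genes at 1.39. Camp was on its rising side, where the mean score was 0.50 at 462.4 kb to the left, and the F-box gene Fbxw22 was the latest neighbour at 0.44. Ngp was on its falling side, at 1.30, with 0.83 at 500 kb to the right. Ltf lay in a lower stretch further right, at 0.89, with 1.17 at 500 kb to its left and 0.26 at 500 kb to its right. All 47 neighbours were above 0 in each profile, against 76.4% of all genes.

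Mpo and Ctsg lay on falling slopes, of -0.14 and -0.09 units per 100 kb, which were steeper than at 75.5% and 56.5% of all genes. At Mpo the mean score was 1.27 at 250 kb to the left, 1.07 at the gene and 0.67 at 500 kb to the right. The septin gene Septin4 was the earliest neighbour at 1.25, and Lpo, the lactoperoxidase gene next to Mpo, was at 1.05. At Ctsg the mean score was 1.19 at 500 kb to the left, 0.95 at the gene and 0.79 at 250 kb to the right, from where it came back to 0.91 at 500 kb. The ubiquitin-like protein gene Nedd8 was the earliest neighbour there at 1.21 and the proton pump gene Atp12a the latest at 0.77.

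S100a8 and S100a9 lay in a timing transition. The mean score fell from 1.39 at 500 kb to the left of S100a8 to -0.65 at 500 kb to its right. The slope at the gene, fitted over 100 kb on each side, was -0.31 units per 100 kb at S100a8 and -0.32 at S100a9. This was steeper than at 98.4% and 98.7% of all genes, and a slope steeper than 0.25 in size was found at these 2 of the 10 genes and at 5.1% of all genes. The score first fell below 0 at 279.4, 291.6, 202.1, 246.4, 212.9 and 181.4 kb to the right of S100a9 in profiles A to F. The crossing was thus nearest in F and farthest in B. The other 8 genes had slopes of 0.04 to 0.14 in size.

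**Figure D3:**
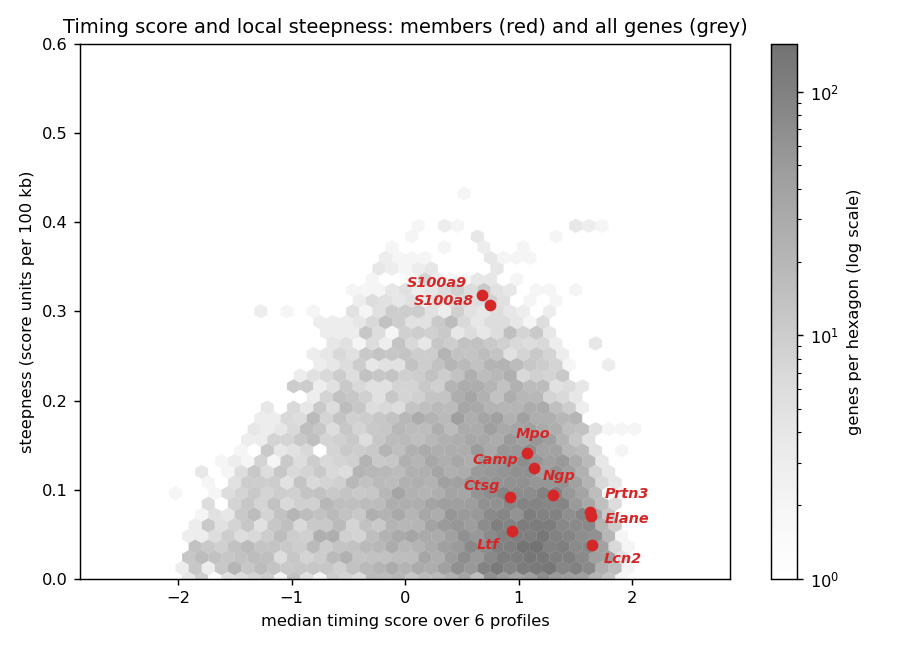
Local steepness (vertical axis, absolute slope in score units per 100 kb) against median timing score over the 6 profiles, with the 10 granule genes as red points and all genes as grey hexagons shaded by count on a log scale; 9 of 18012 genes lie beyond the axes. S100a8 and S100a9 stand at 0.31 and 0.32, and the other 8 genes between 0.04 and 0.14.

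Ctsg belongs to a cluster of serine protease genes that are used by other cells, with granzyme genes, best known from cytotoxic lymphocytes, on its right and protease genes of mast cells and basophils on its left. By median, the smoothed score fell from left to right across this cluster. Smoothing makes neighbouring genes alike, and raw levels were not compared across the cluster genes. All 13 listed cluster genes were above 0 in each profile, against 76.4% of all genes. None of the 13 reached 1 in all 6, against 27.7% of all genes. As neighbours in a smoothed profile they are not separate observations. Cma1, the mast cell chymase gene 158.2 kb to the left of Ctsg, was the earliest at a median of 1.08, and Gzmb, the granzyme B gene 159.4 kb to its right, was the latest at 0.78. The nearest genes, Mcpt8 on the left and Gzme on the right, scored 0.95 and 0.91 by median, on either side of the 0.92 of Ctsg.

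The S100a genes next to S100a8 showed the same kind of gradient at a steeper pitch. S100a1, 156.9 kb to the left, had a median of 1.19, and S100a4, 64.6 kb to the left, had 0.96. S100a7a, the nearest neighbour on the left, was at 0.81. To the right of S100a9 the peptidoglycan recognition gene Pglyrp4 was at 0.54. Farther along the chromosome, S100a11 and S100a10, 2854 and 2890 kb to the right of S100a8, scored -0.15 and -0.13 and were below 0 in each profile. Of the 13 S100a genes of chromosome 3 other than these 2 granulocyte genes, 12 were scored. Above 0 in each profile were 10 of the 12, against 76.4% of all genes.

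**Figure D4:**
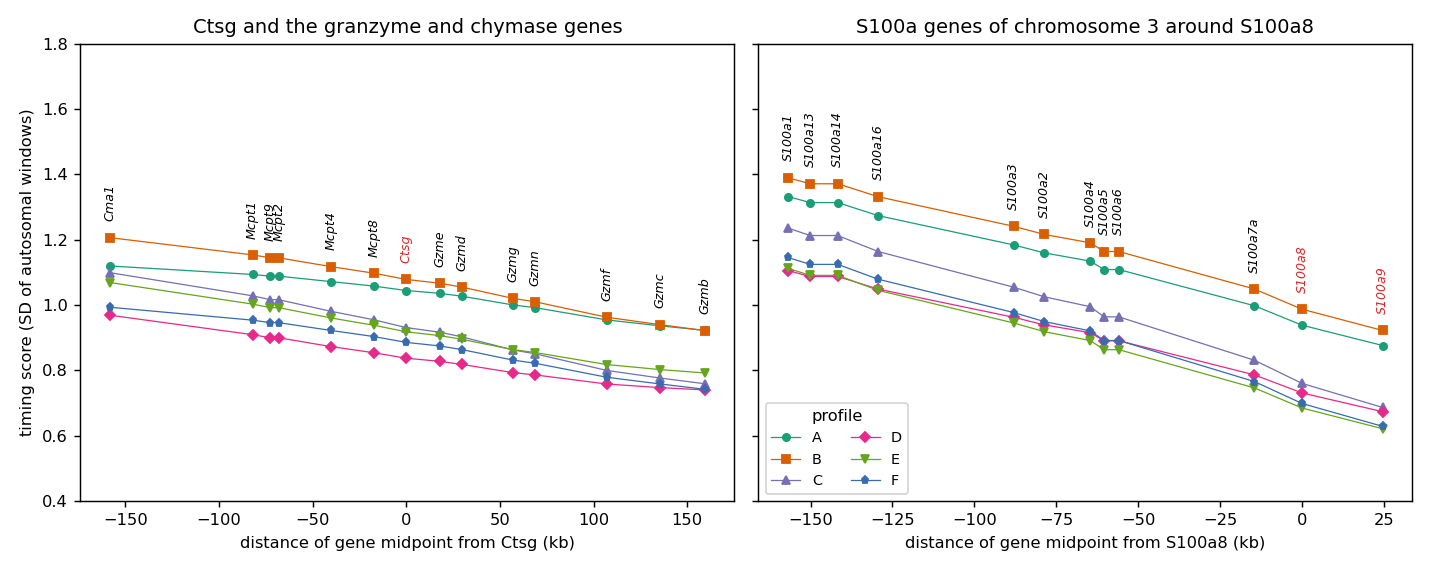
Timing score (vertical axis, in SD of autosomal windows) of the genes around Ctsg (left) and of the S100a genes within 500 kb of S100a8 (right) against distance of the gene midpoint (kb), with 1 line per profile and the granule genes named in red. Medians run from 1.08 at Cma1 to 0.78 at Gzmb, and from 1.19 at S100a1 to 0.68 at S100a9.

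The raw levels, which are not smoothed, were above the autosomal median around each gene in each profile. Averaged over the 9 or 10 windows within 50 kb, the raw level at Lcn2 was 2.21, 2.20, 2.24, 2.19, 2.21 and 2.19 in A to F, a median of 1.12 times the autosomal median. At Elane it was 2.15, 2.16, 2.15, 2.14, 2.12 and 2.17, or 1.09 times. At Ltf it was 2.11, 2.10, 2.08, 2.01, 2.06 and 2.03, or 1.05 times. Lcn2 was the highest and Ltf the lowest of the 10 by median on this measure.

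S100a8 stood at 2.16, 2.16, 2.13, 2.08, 2.09 and 2.15, close to Mpo, Ctsg, Camp and Ngp, whose medians were 2.13 to 2.14. S100a9 stood at 2.11, 2.11, 2.08, 2.03, 2.03 and 2.09. Single windows scattered with an SD of 0.06 to 0.24 within these stretches, and whether the means of different genes differed beyond their own error was not tested. On raw levels rescaled in the way of the score, S100a8 had a median of 1.07 in place of 0.75, and Elane 1.18 in place of 1.63. At Ltf, D and F stood lowest in both raw level and score, with the raw level lowest in D and the score lowest in F. Both measures come from the same libraries, so they are not separate observations.

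**Figure D5:**
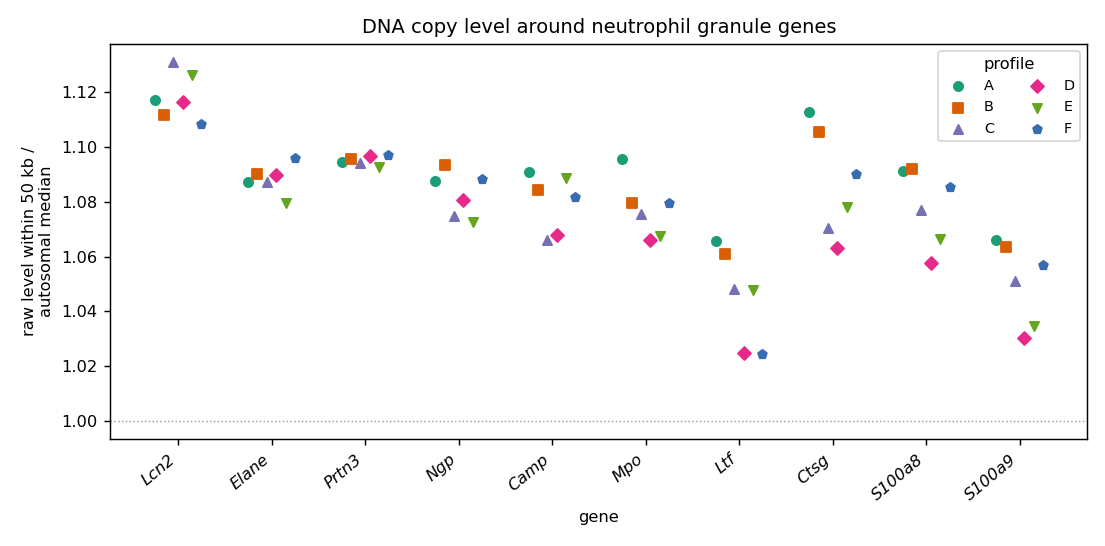
Mean raw copy level of the windows within 50 kb of each gene, divided by the autosomal median of the same profile (vertical axis, ratio that does not start at 0), with 1 point per profile and genes in order of timing score. All points lie above 1, from a lowest value of 1.02 at Ltf to a highest of 1.13 at Lcn2.

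Other genes of neutrophil granules and of the neutrophil lineage mostly scored above 0 too, but their median of 0.90 was close to the 0.82 of all genes. Of 34 such genes, 30 were scored, and 28 of these were above 0 in each profile, against 76.4% of all genes. Ms4a3 on chromosome 19 and Cybb on the X were not among the scored genes, and Chil3 and Stfa1 had no value in some or all profiles. A score of at least 1 in each profile was found at 10 of the 30, against 27.7% of all genes. Among azurophil genes, 8 of 9 were above 0, from Cfd at 1.63 to Ctsc, the gene of the cathepsin C that activates elastase and cathepsin G, at -0.27 (-0.53 to -0.15). Ctsc was the only one of the 30 below 0 in each profile. Prss57, a further azurophil protease gene, lies beside Prtn3 and Elane, and Cfd shares a window with Elane, so they repeat that locus.

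Specific granule genes of this wider set were the latest class, with a median of 0.70 over 10 scored genes, below the 0.82 of all genes. Only 1 of the 10 reached a score of 1 in each profile, against 27.7% of all genes. Cyba, a subunit gene of the NADPH oxidase, was the earliest at 1.45 to 1.61, and Olfm4, the olfactomedin 4 gene, the latest at 0.28. The stefin gene Stfa2 was the one gene of mixed sign, at -0.12 to 0.45. The 7 genes of gelatinase granules and the surface of mature cells had a median of 0.90, from the metal transporter gene Slc11a1 at 1.39 to the resistin-like gene Retnlg at 0.52. The 4 regulator genes had a median of 1.40, from the transcriptional repressor gene Gfi1 at 1.56 to the C/EBPα gene Cebpa at 0.81. The differences between classes were not tested, since the genes of a class are not replicates.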

How the data were processed

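Whole-genome sequencing depth was measured in 6 samples. Per the submitters' processing notes, which name tools without their roles, the build was mm10 and Picard 2.23.9 was one of the tools. The series title names TIGER, a method that reads timing from depth. The sources used here gave neither the aligner nor the GC correction or smoothing. The authors deposited 2 tables without headers over 237602 windows (median 10041 bp), one with a raw copy level and one with a smoothed timing score. Their columns carry no sample names, so the planned limma comparison of the genotypes was not run. No difference between genes or gene sets was tested for significance, and values are given per profile or as median and range. Dixon's criterion for a single outlying profile was the only test applied. Genes came from RefSeq (GRCm38.p6); each took the nearest window within 50 kb, and X was left out. Slopes were least-squares fits over 100 kb on each side. The functions were tested on simulated profiles. Named genes were the 10 granule genes, the earliest, latest and nearest neighbours of each locus, the Ctsg and S100a clusters, the earliest and latest of each class, and the 3 genes closest in score; other named genes were chosen after their values were seen. Members, lists and alternatives were chosen with earlier results of these data known. Python 3.11.15, NumPy 2.4.6, SciPy 1.17.1 and pandas 2.3.3 were used.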

Additional observations from a re-analysis of the deposited data

How the results depend on the processing

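All 10 genes stayed above 0 in each profile under each alternative tried: other gene positions, scores averaged over 50 or 250 kb, rescaling over 12 chromosomes without large shifts, rescaled raw levels, and each profile left out. Of all genes, 76.4% were above 0 in each profile by score and 73.3% on rescaled raw levels. That share was not computed for the other alternatives. The median of the 10 genes was 1.07 to 1.10 under the alternatives that kept all 6 profiles, and 1.06 to 1.14 with a profile left out. The count at or above 1 in each profile was 3 on rescaled raw levels (25.3% of all genes). It was 6 after rescaling over the 12 chromosomes and 5 to 6 with a profile left out. Shares of all genes were not computed for these, and by score with all 6 profiles the share was 27.7%. The count was 10 at a limit of 0.5 (58.1% of all genes) and 0 at a limit of 1.5 (2.78% of all genes). Genes near a peak numbered 0 within 50 kb (6.06% of all genes) and 3 within 200 kb (23.9% of all genes). With a profile left out they numbered between 1 (without profile C, against 12.5% of all genes) and 2. Genes with a range under 0.25 numbered 6, against 41.3% of all genes. Of 60 values of single genes under alternatives with all profiles, 52 moved by less than the SD over the profiles, 8 moved further, and 0 changed sign. All alternatives but the rescaled raw levels read the same smoothed profile, so little movement could show there. On rescaled raw levels 8 of the 10 genes moved further than that SD, all but Lcn2 and S100a9. The wider set had 25 of 30 genes above 0 on rescaled raw levels (73.3% of all genes), against 28 by score. Counts per locus were not run, since 6 loci have another denominator. The depth per window is unknown, so its limit shows only as the scatter of raw levels. No paired analysis was possible because no column has a replicate label.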

Other observations

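The genes outside the chromosomes of the granule genes whose 6 scores came closest to the median granule gene of each profile were Gga2, a Golgi sorting adaptor gene on chromosome 7, Cplane1, a ciliogenesis gene on chromosome 15, and Slain2, a microtubule regulator gene on chromosome 5. Their root mean square differences over the 6 profiles were 0.018, 0.021 and 0.024 score units, out of 10939 genes searched. Gga2 scored 1.17, 1.18, 1.11, 1.05, 1.11 and 0.98 in profiles A to F, and the median granule gene scored 1.15, 1.15, 1.11, 1.04, 1.11 and 1.00. The loci of the granule genes also differed in gene density, with 55.5 other scored genes per Mb around Prtn3 and Elane, 41.9 around Ctsg, 32.9 around Lcn2, 25.3 around the calprotectin genes, 21.4 around the chromosome 9 genes and 20.8 around Mpo. Among 20 sets of 6 values, the scores and raw levels of the 10 genes, no profile stood apart from the other 5 by Dixon's criterion, and the raw level of Lcn2 in profile C came nearest, with a gap of 0.583 of the range.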
